A study of Rattus norvegicus with 16 samples.

Results

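The transcripts of 8 genes of cholesterol synthesis and its control were measured in the distal colon of 16 male rats: Hmgcs1, Idi1, Fdps, Fdft1, Sqle and Dhcr7, which encode enzymes of the pathway, and Insig1 and Srebf2, which encode proteins that control it. The members were the probes of the Agilent rat array whose RefSeq transcript carries 1 of these 8 gene symbols and which are not control probes. This gave 9 probes, 2 of them for Fdps, among 30367 probes that stand for 15159 gene symbols. All 9 probes were well above background on all 16 arrays and none was saturated on any. A level is given as the log2 signal of a probe minus the log2 of the 75th percentile of its array, so that 0 is the 75th percentile and a difference of 1 is a factor of 2. Levels of different probes are not comparable with each other, because each probe has its own hybridization strength.

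The rats were of the (ACIxF344)F1-Pirc strain as labelled, a first-generation cross of ACI and F344. Carriers have the genotype Pirc/+, with 1 copy of the Pirc allele of the tumor suppressor gene Apc, an allele carried in every cell of the animal that leads to adenomas of the colon. Their counterparts were wildtype at Apc. Rats of each genotype either were left untreated or drank 4% dextran sodium sulfate (DSS, of high molecular weight), a polysaccharide that injures the colonic epithelium, from day 40 to 47 and again from day 54 to 61 of age. All were sampled at 97 days of age, 36 days after the last DSS, and the tissue was labelled as normal distal colon. There were 4 rats in each of the 4 groups: untreated wildtype, DSS-treated wildtype, untreated Pirc and DSS-treated Pirc. Each rat is named by its number in the labels.

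Cholesterol is built from acetyl-CoA through the mevalonate pathway. HMG-CoA synthase acts on the way to mevalonate, isomerized and condensed 5-carbon units give farnesyl diphosphate, squalene synthase commits it to sterols, and squalene epoxidase opens the branch that ends in cholesterol. The enzymes are induced together when sterols in the endoplasmic reticulum fall: SREBP2, the product of Srebf2, is then carried by SCAP to the Golgi, cleaved by 2 proteases and sent to the nucleus, while INSIG1 holds SCAP back when sterols are plentiful. Srebf2 and Insig1 are themselves among the genes that SREBP2 activates. The colonic epithelium renews itself constantly and needs cholesterol for new membranes.

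SREBP2 acts at promoters together with the factors NF-Y and Sp1, so the stretches before the transcription starts of 5 members are shown, chosen because results below turn on them. The sequences are the 250 bases before the start, 5′ to 3′ in the direction of the gene, from RefSeq (build GRCr8). Capitals mark matches on either strand to CACNCCAC, the core of a sterol regulatory element, or to CCAAT, the NF-Y box.
Hmgcs1 (chr2:53382054-53382303, plus strand): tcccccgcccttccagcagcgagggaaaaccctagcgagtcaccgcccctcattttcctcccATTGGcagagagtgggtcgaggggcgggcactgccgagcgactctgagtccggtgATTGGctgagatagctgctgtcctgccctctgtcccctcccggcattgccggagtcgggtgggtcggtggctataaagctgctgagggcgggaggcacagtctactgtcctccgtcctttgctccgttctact
Idi1 (chr17:66547525-66547774, minus strand): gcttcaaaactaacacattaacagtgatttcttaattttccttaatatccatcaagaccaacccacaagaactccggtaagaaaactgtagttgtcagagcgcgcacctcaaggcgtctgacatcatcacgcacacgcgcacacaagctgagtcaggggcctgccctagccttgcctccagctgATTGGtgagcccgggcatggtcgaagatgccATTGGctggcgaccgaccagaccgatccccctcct
Fdps (chr2:176804817-176805066, minus strand): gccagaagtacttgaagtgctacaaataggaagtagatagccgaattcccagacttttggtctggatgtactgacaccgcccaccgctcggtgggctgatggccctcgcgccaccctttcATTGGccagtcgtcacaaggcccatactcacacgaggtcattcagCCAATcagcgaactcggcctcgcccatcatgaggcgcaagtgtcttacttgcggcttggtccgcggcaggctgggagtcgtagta
Insig1 (chr4:8057770-8058019, minus strand): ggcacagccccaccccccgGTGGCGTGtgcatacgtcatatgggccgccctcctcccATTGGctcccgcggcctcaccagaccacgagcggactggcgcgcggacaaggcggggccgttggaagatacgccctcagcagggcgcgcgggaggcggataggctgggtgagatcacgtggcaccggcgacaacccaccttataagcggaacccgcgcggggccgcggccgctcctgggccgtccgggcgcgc
Srebf2 (chr7:115543057-115543306, plus strand): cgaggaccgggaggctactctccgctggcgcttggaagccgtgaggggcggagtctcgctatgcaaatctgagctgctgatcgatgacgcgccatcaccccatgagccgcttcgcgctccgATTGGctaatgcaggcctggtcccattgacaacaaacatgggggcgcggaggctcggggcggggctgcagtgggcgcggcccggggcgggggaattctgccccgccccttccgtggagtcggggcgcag

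A promoter entry of full length, with 250 bases before and 50 after the start, was matched for 6 of the 8 members. Those of Fdft1 and Sqle were not analysed here. CCAAT was found on either strand in 5 of the 6, Dhcr7 being the exception, and in 37.7% of all 27457 promoters of that length. Hmgcs1, Fdps and Idi1 each held 2 such boxes and Insig1 and Srebf2 held 1. GGGCGG, the Sp1 box, was found in 5 of the 6, not in Idi1, against 34.9% of all promoters. CACNCCAC was found only in Insig1 among the 6, at positions -231 and 14 from the start, against 5.7% of all promoters. Matches of different motifs did not overlap in these promoters. A match describes letters in the window and is not a measured binding site. Of 16 matched promoters of the wider synthesis pathway, a list that holds the enzymes among the members but not Insig1 or Srebf2, 13 held CCAAT, 14 held GGGCGG and 2 held CACNCCAC.

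The arrays were comparable in quality: 71.1% to 80.3% of spots were well above background, no spot was saturated, and levels of any 2 arrays correlated at 0.959 or more over all probes. The defining markers of colon epithelium were present, 9 of 9 measured genes being above background on all arrays, with a summed scaled signal (the sum of the markers' linear signals, each array's 75th percentile being 1) of 521 to 801 over the 16 rats. Of the surface colonocyte list 10 of 10 genes were measured, and 2 passed higher and 2 lower after DSS over both genotypes. Goblet cell genes (6 measured) had 0 higher and 1 lower, and proliferation genes (5 measured) none in either direction. Smooth muscle genes (8 measured, 5 above background on all arrays and Lmod1 on no array) had 1 higher and 1 lower. By contrast, 7 of 7 measured fibroblast genes passed higher, 6 of them above background on all arrays. Of all probes 10.2% passed higher and 6.99% lower in this comparison. The fibroblast sum was 1.38 to 2.67 in untreated and 2.60 to 14.7 in DSS-treated rats. The stratified and urothelial sum, over 9 measured genes of which Upk2 was above background on no array, lay between 0.371 and 0.55 in the 8 untreated rats and between 13 and 69.8 in the 4 DSS-treated Pirc rats. Among DSS-treated wildtype rats it was 2.29 in rat 14, 4.39 in rat 18, 33.3 in rat 22 and 0.413 in rat 26. For this sum rat 26 lay within the range of untreated rats. Its adipocyte sum of 0.574 also lay within their range, whereas its fibroblast sum of 3.04 was above that of every untreated rat. The members' differences after DSS over both genotypes, and calls of named genes that were lost without rat 26, are therefore also given without it. Each group lay in a column of its own on the slides, and an effect of the column cannot be told apart from that of the group, whereas each of the 2 slides held 2 rats of every group.

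The first question was whether DSS left a lasting difference in the levels of these transcripts. Over both genotypes, 1 of the 8 members passed an adjusted p of 0.05, namely Idi1, which was higher after DSS. Of all probes 17.2% passed in this comparison and 10.2% passed higher. The median difference of the 8 members was 0.15 on the log2 scale, from -0.08 for Srebf2 to 0.67 for Idi1, and that of all probes was 0.06. No member passed in Pirc rats alone, where 14.7% of probes did, or in wildtype rats alone, where 3.84% did. An unadjusted p under 0.05 in limma was reached in Pirc rats by 2 members, Idi1 and Fdps, and by 27.1% of probes, and in wildtype rats by 0 members and 16.8% of probes.

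Idi1 encodes isopentenyl diphosphate isomerase, which turns 1 form of the 5-carbon unit into the other. Its level in untreated wildtype rats was 1.60 in rat 13, 2.05 in rat 17, 1.71 in rat 21 and 1.67 in rat 25. In DSS-treated wildtype rats it was 2.76 in rat 14, 2.45 in rat 18, 2.30 in rat 22 and 1.70 in rat 26. All but rat 26 were above the 4 untreated wildtype rats. In untreated Pirc rats Idi1 was at 1.86 in rat 11, 1.83 in rat 15, 1.92 in rat 19 and 2.89 in rat 23. In DSS-treated Pirc rats it was at 2.98 in rat 12, 2.98 in rat 16, 3.28 in rat 20 and 2.47 in rat 24. Only untreated rat 23 reached into the range of the DSS-treated Pirc rats, and 3 of those 4 were above all other rats of the study.

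Over both genotypes Idi1 was higher after DSS by 0.67 ± 0.19 (SE, log2, 95% interval 0.27 to 1.07, 8 rats against 8), a factor of 1.59, with an adjusted p of 0.0215 in limma. The treated and untreated rats overlapped. The difference was 0.80 ± 0.26 in Pirc rats (adjusted p of 0.0562) and 0.54 ± 0.26 in wildtype rats (adjusted p of 0.324). The difference between these 2 effects was 0.26 ± 0.37 (adjusted p of 0.863), with an interval of -0.54 to 1.06. Within slides the difference over both genotypes was 0.96 on slide 1 and 0.39 on slide 2.

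Individual rats bore on the value in Pirc rats. Without untreated Pirc rat 23 the difference in Pirc rats was 1.06 (adjusted p of 0.00817), and without DSS-treated Pirc rat 24 it was 0.96 (adjusted p of 0.0284). Without DSS-treated wildtype rat 26 the difference in wildtype rats was 0.74 (adjusted p of 0.115), that in Pirc rats passed at an adjusted p of 0.0369, and that over both genotypes was 0.77 (adjusted p of 0.00738). Leaving out any 1 of the 16 rats kept the difference over both genotypes between 0.60 and 0.80, with an adjusted p of at most 0.0493.

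Markers of several cell types moved with Idi1, adipocyte markers among them. Of 7 measured adipocyte genes, 4 were above background on all arrays. After DSS over both genotypes 4 of the 7 passed higher, against 10.2% of all probes, and none lower. Fibroblast, stratified and urothelial, and leukocyte genes also passed higher, 7 of 7, 7 of 9 and 5 of 8. The summed scaled signal of the adipocyte genes was 0.396 to 0.521 in untreated wildtype rats, 0.574 to 2.30 in DSS-treated wildtype rats, 0.426 to 0.738 in untreated Pirc rats and 1.63 to 4.12 in DSS-treated Pirc rats. Rat 26 had the lowest sum of its group and rat 23 the highest of its group. They held the same places for Idi1, Hmgcs1, Sqle, Fdft1 and Fdps. Among the other marker lists, the colon epithelium sum alone held both places too, at 656 in rat 26 and 732 in rat 23. Across the 16 rats, the deviation of Idi1 from its group mean correlated with that of the adipocyte sum at 0.79, a description over rats that share arrays and depth. For the other sums r was 0.47 with colon epithelium, 0.46 with leukocytes, 0.40 with fibroblasts and 0.23 with stratified and urothelial genes. It was 0 with proliferation genes, -0.06 with surface colonocytes and -0.43 with goblet cells and with smooth muscle. Between the adipocyte sum and the other members r ran from -0.06 for Dhcr7 to 0.71 for Hmgcs1. In bulk tissue more cells of a type and more RNA per cell cannot be told apart, and the part of adipocytes or other cell types in the Idi1 difference was not tested.

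**Figure D1:**
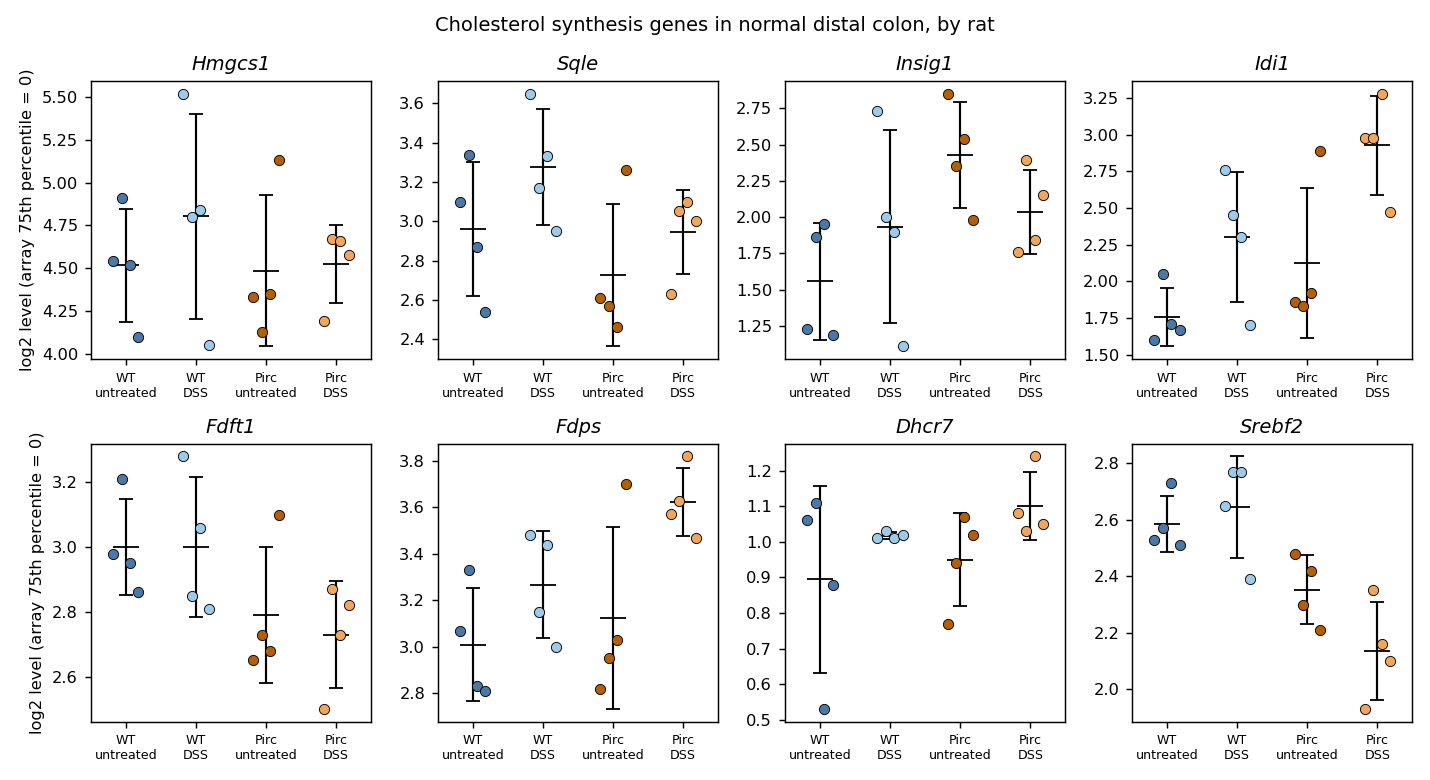
Levels of the 8 genes (vertical axes, log2 signal relative to the array's 75th percentile, a separate scale for each gene) in each rat, by group along the horizontal axes, with the mean and SD of 4 rats as bars. Idi1 lay between 2.47 and 3.28 in the 4 DSS-treated Pirc rats, and Srebf2 was lower in every Pirc rat than in every wildtype rat of the same treatment. The genotypes were without overlap for 8.72% of all probes among untreated and for 18.8% among DSS-treated rats.

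Fdps encodes farnesyl diphosphate synthase, the next enzyme after Idi1. Its leading probe was at 3.07, 3.33, 2.83 and 2.81 in untreated wildtype rats 13, 17, 21 and 25, and at 3.48, 3.15, 3.44 and 3.0 in DSS-treated wildtype rats 14, 18, 22 and 26. It was at 2.82, 2.95, 3.03 and 3.70 in untreated Pirc rats 11, 15, 19 and 23, and at 3.57, 3.63, 3.82 and 3.47 in DSS-treated Pirc rats 12, 16, 20 and 24. As for Idi1, rat 23 was the sole untreated Pirc rat within the range of the treated ones. The difference after DSS was 0.38 ± 0.14 (SE, interval 0.09 to 0.67) over both genotypes and did not pass (adjusted p of 0.0723). The other probe of Fdps gave 0.44 ± 0.15 (adjusted p of 0.0573). Without rat 23 the leading probe's difference was 0.47 over both genotypes (adjusted p of 0.00899) and 0.69 in Pirc rats (adjusted p of 0.0117). Without rat 26 it was 0.42 (adjusted p of 0.0496).

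The other enzymes did not pass in any comparison. Hmgcs1 encodes the cytosolic HMG-CoA synthase, an early enzyme of the pathway. Its levels were 4.54, 4.91, 4.52 and 4.10 in untreated wildtype rats 13, 17, 21 and 25 and 5.52, 4.80, 4.84 and 4.05 in DSS-treated wildtype rats 14, 18, 22 and 26. They were 4.33, 4.13, 4.35 and 5.13 in untreated Pirc rats 11, 15, 19 and 23 and 4.19, 4.67, 4.66 and 4.58 in DSS-treated Pirc rats 12, 16, 20 and 24. The highest and the lowest of all 16 rats were thus both DSS-treated wildtype rats, 14 and 26. The difference after DSS over both genotypes was 0.16 ± 0.20 (SE, interval -0.27 to 0.59, adjusted p of 0.684), and without rat 26 it was 0.29 (adjusted p of 0.339).

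Sqle encodes squalene epoxidase, a rate-limiting enzyme late in the pathway. Its group means were 2.96 ± 0.34 (SD, n = 4) in untreated wildtype, 3.27 ± 0.30 in DSS-treated wildtype, 2.72 ± 0.36 in untreated Pirc and 2.94 ± 0.21 in DSS-treated Pirc rats. The difference after DSS was 0.27 ± 0.15 (SE, interval -0.06 to 0.59, adjusted p of 0.29). Fdft1, which encodes squalene synthase, differed by -0.03 ± 0.10 (interval -0.25 to 0.19, adjusted p of 0.898). Dhcr7 encodes the reductase of the last step in 1 branch of the pathway and differed by 0.14 ± 0.09 (interval -0.06 to 0.34, adjusted p of 0.385). Insig1 differed by -0.01 ± 0.21 (adjusted p of 0.989) and Srebf2 by -0.08 ± 0.09 (adjusted p of 0.644). Without rat 26 the differences were 0.32 for Sqle, 0 for Fdft1, 0.14 for Dhcr7, 0.13 for Insig1 and -0.04 for Srebf2 (adjusted p of 0.191, 0.989, 0.418, 0.735 and 0.823).

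**Figure D2:**
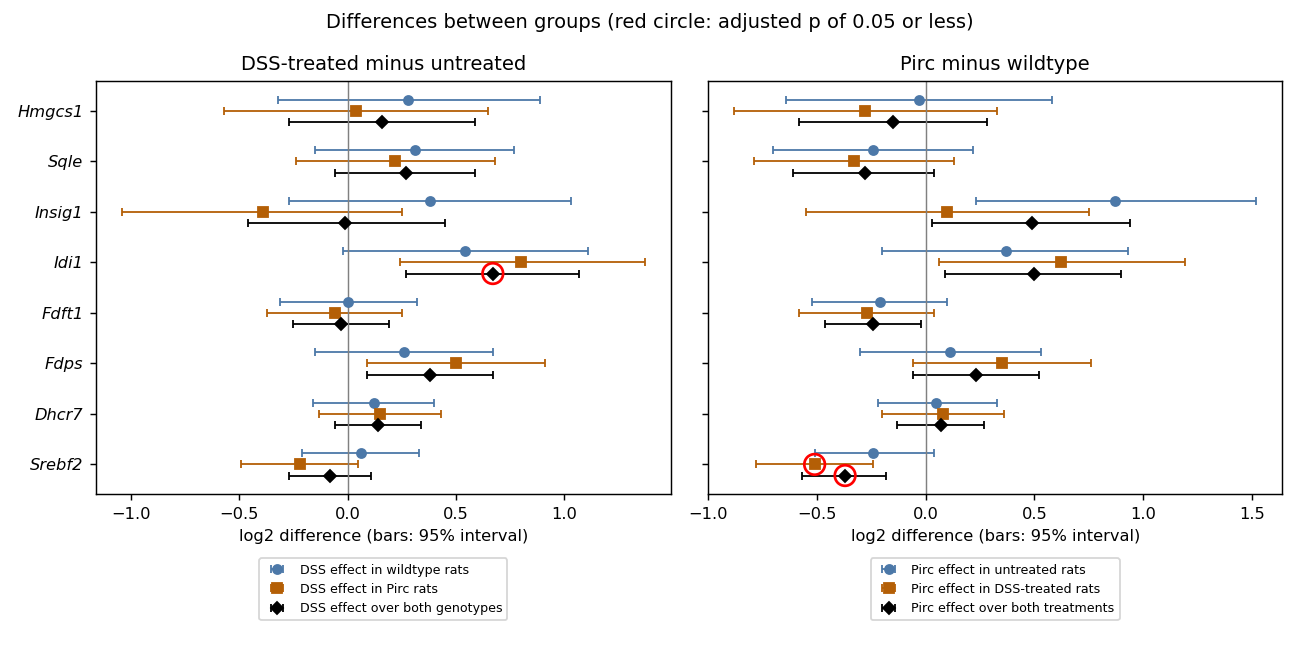
Log2 differences of the 8 genes after DSS (left) and in Pirc against wildtype rats (right), along the horizontal axes, with 95% intervals as bars, in each stratum and over both. Red circles mark an adjusted p of 0.05 or less: Idi1 after DSS over both genotypes (0.67), and Srebf2 in Pirc rats, at -0.37 over both treatments and -0.51 when DSS-treated.

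The next question was whether the Pirc allele changed the levels in tissue that was labelled as normal. Over both treatments 1 of the 8 members passed, Srebf2, which was lower in Pirc rats. Of all probes 17.5% passed in this comparison and 8.27% passed lower. Among DSS-treated rats Srebf2 was again the member that passed, where 18.2% of probes did and 8.76% did so lower. Among untreated rats 0 members and 0 of all 30367 probes passed in limma, while 1 member, Insig1, and 3103 probes (10.2%) had an unadjusted p under 0.05. The comparisons over both treatments and within each treatment share rats and are not independent.

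Srebf2, which encodes the precursor of the transcription factor SREBP2, was at 2.53 in rat 13, 2.57 in rat 17, 2.73 in rat 21 and 2.51 in rat 25 in untreated wildtype rats. In untreated Pirc rats it was at 2.48 in rat 11, 2.30 in rat 15, 2.42 in rat 19 and 2.21 in rat 23. All 4 untreated Pirc rats were below all 4 untreated wildtype rats, the nearest values being those of rats 11 and 25. Such a lack of overlap held for 8.72% of all probes. In DSS-treated wildtype rats it was at 2.65 in rat 14, 2.77 in rat 18, 2.77 in rat 22 and 2.39 in rat 26, and in DSS-treated Pirc rats at 1.93 in rat 12, 2.35 in rat 16, 2.16 in rat 20 and 2.10 in rat 24. These DSS-treated groups did not overlap either, the nearest values being those of rats 26 and 16, which held for 18.8% of all probes.

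The difference of Srebf2 in Pirc rats was -0.37 ± 0.09 over both treatments (SE, log2, interval -0.57 to -0.18, 8 rats against 8), a factor of 0.772, with an adjusted p of 0.0116 in limma. It was -0.51 ± 0.13 among DSS-treated rats (interval -0.78 to -0.24, adjusted p of 0.0133) and -0.24 ± 0.13 among untreated rats (interval -0.51 to 0.04, adjusted p of 0.561). The difference between the 2 was -0.28 ± 0.18 (interval -0.66 to 0.11, adjusted p of 0.608). On slides 1 and 2 the difference over both treatments was -0.36 and -0.38, and among DSS-treated rats -0.57 and -0.46. Leaving out any 1 rat kept it between -0.42 and -0.34 over both treatments, with an adjusted p of at most 0.0296, and between -0.60 and -0.44 among DSS-treated rats, with an adjusted p of at most 0.0464. Without rat 26 these were -0.42 and -0.60 (adjusted p of 0.00703 and 0.00862). A fit to the DSS-treated groups alone gave the same difference among them with an adjusted p of 0.0841.

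Markers of other cell types moved in the same comparisons. Of 9 measured genes of colon epithelium, 4 (Epcam, Cdh1, Vil1 and Krt8) passed lower in Pirc rats among DSS-treated rats and none higher, and the median difference of the 9 was -0.45. The summed scaled signal of the list was 656 to 801 in DSS-treated wildtype and 552 to 734 in DSS-treated Pirc rats. Over both treatments 3 of the 9 passed lower, against 8.27% of all probes, with a median of -0.21. Of 10 surface colonocyte genes, Slc26a3, Guca2a and Slc16a1 passed lower among DSS-treated rats, at -2.25, -1.42 and -0.98, and none higher, with sums of 246 to 285 in wildtype and 83.8 to 171 in Pirc rats. Of 9 stratified and urothelial genes, Krt13, Krt4, Upk1a and Upk3a passed higher there, at 5.34, 3.87, 3.19 and 1.29, and none lower. Of all probes 9.47% passed higher and 8.76% lower among DSS-treated rats. Of 5 measured proliferation genes, Mcm2 and Pcna passed higher over both treatments, against 9.26% of all probes, and none lower. Among DSS-treated rats Mcm2 passed higher and none lower. The deviation of Srebf2 from its group mean correlated with that of the sum at 0.16 for colon epithelium, 0.36 for surface colonocytes and 0.57 for stratified and urothelial genes over the 16 rats. For the other sums r was 0.46 with adipocytes, 0.26 with fibroblasts and 0.09 with goblet cells. It was -0.2 with leukocytes, -0.32 with smooth muscle and -0.57 with proliferation genes. The part of these cell types or of proliferation in the Srebf2 difference was not tested.

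Insig1 encodes the sterol-dependent anchor of SCAP. It was at 1.23, 1.86, 1.95 and 1.19 in untreated wildtype rats 13, 17, 21 and 25 and at 2.85, 2.35, 2.54 and 1.98 in untreated Pirc rats 11, 15, 19 and 23. All 4 Pirc values were above all 4 wildtype values, and 8.72% of all probes were without overlap in this comparison. The difference was 0.87 ± 0.30 (SE, interval 0.23 to 1.52, a factor of 1.83) and did not pass when adjusted over all probes (adjusted p of 0.332). In DSS-treated wildtype rats 14, 18, 22 and 26 it was at 2.73, 2.0, 1.90 and 1.11, and in DSS-treated Pirc rats 12, 16, 20 and 24 at 1.76, 2.39, 1.84 and 2.15. These overlapped, with a difference of 0.10 ± 0.30 (adjusted p of 0.85). The difference after DSS was thus 0.38 ± 0.30 in wildtype and -0.39 ± 0.30 in Pirc rats. The contrast between these 2 effects was -0.78 ± 0.43 (interval -1.69 to 0.14, adjusted p of 0.543), so a change in direction was not established. Without DSS-treated wildtype rat 14, Insig1 passed over both treatments at 0.62 (adjusted p of 0.045).

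Groups without overlap were counted for each comparison. Among untreated rats 2 of the 8 members, Insig1 and Srebf2, showed no overlap between the genotypes, against 8.72% of all probes. Among DSS-treated rats 2 did so, Srebf2 and Dhcr7, against 18.8% of all probes. Dhcr7 did so with a difference of 0.08 ± 0.13 (adjusted p of 0.689), since the 4 DSS-treated wildtype rats were between 1.01 and 1.03 and the 4 DSS-treated Pirc rats between 1.03 and 1.24, the nearest values differing only before rounding. For DSS, no member was without overlap in Pirc rats (16.9% of all probes) or in wildtype rats (12.4%).

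None of the enzymes passed between genotypes. Idi1 was higher in Pirc rats by 0.50 ± 0.19 over both treatments and did not pass (adjusted p of 0.0838). Without DSS-treated Pirc rat 24 it passed at 0.57 (adjusted p of 0.0487). Fdft1 was at -0.24 ± 0.10 (interval -0.46 to -0.02, adjusted p of 0.13) and Sqle at -0.28 ± 0.15 (interval -0.61 to 0.04, adjusted p of 0.223). Hmgcs1 was at -0.15 ± 0.20, Fdps at 0.23 ± 0.14 and Dhcr7 at 0.07 ± 0.09, with adjusted p-values of 0.633, 0.264 and 0.64. For Hmgcs1 the 2 slides gave opposite signs, -0.61 on slide 1 and 0.30 on slide 2.

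No member passed the test of a difference between the DSS effects in the 2 genotypes, where 13 of all probes did (0.0428%). An unadjusted p under 0.05 was reached in limma by 0 members and by 10.6% of probes. The members' contrasts ran from -0.78 for Insig1 to 0.26 for Idi1, with a median of -0.08 against -0.06 for all probes.

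The members differed in how much rats of 1 group varied. The SD within groups was 0.45 for Insig1, 0.42 for Hmgcs1, 0.39 for Idi1, 0.31 for Sqle, 0.27 for Fdps, 0.19 for Fdft1, 0.16 for Dhcr7 and 0.15 for Srebf2. Among the 19397 probes above background on all arrays the median SD was 0.25, and Insig1 stood at percentile 89.0, Hmgcs1 at 86.2 and Idi1 at 82.6, whereas Srebf2 stood at 11.5. Insig1, Hmgcs1 and Idi1 were thus among the more variable transcripts from rat to rat and Srebf2 among the steadier ones.

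Most pairs among 5 of the 6 enzymes shared that variation, whereas no pair with Dhcr7 passed the test described next. Each rat's deviation from its group mean was correlated between members over the 16 rats in all 28 pairs, with a permutation test of 100000 resamples within groups and adjustment over the 28 pairs. The correlation passed in 10 pairs, all positive, and Pearson's r ran from -0.35 to 0.92 with a median of 0.36. Of the 10 pairs, 9 lay among the 5 enzymes Hmgcs1, Idi1, Fdps, Fdft1 and Sqle, and the remaining 1 joined Insig1 and Srebf2. Scaling to a common percentile and shared arrays enter every pair, so r is to be read against that of other pairs.

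The closest pair was Hmgcs1 and Sqle, with r of 0.92 and Spearman's rho of 0.95 (permutation p of 0.00028 and 0.00011, adjusted 0.00364 and 0.0028). Without the 2 rats farthest from the median of Hmgcs1, r was 0.95, and it was 0.93 on slide 1 and 0.92 on slide 2. Sqle and Fdft1, which encode the enzymes that oxidize and make squalene, had r of 0.92 and rho of 0.88 (permutation p of 0.00021 and 0.00035, adjusted 0.00364 and 0.00327), with 0.87 without the 2 farthest rats and 0.94 and 0.95 on the slides. Idi1 and Fdps, also neighbours in the pathway, had r of 0.86 and rho of 0.79 (permutation p of 0.00106 and 0.00178, adjusted 0.00555 and 0.00831), with 0.75 without the 2 farthest rats and 0.78 and 0.90 on the slides. Sqle and Idi1 passed with r of 0.72 (permutation p of 0.00976, adjusted 0.0273), and r was 0.49 without the 2 rats farthest from the median of Sqle. Idi1 and Fdft1 were the pair of these enzymes that did not pass, with r of 0.65 and rho of 0.50 (permutation p of 0.0295 and 0.0901, adjusted 0.0752 and 0.21). Without the 2 rats farthest from the median of Idi1, r of that pair was 0.43.

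Insig1 and Srebf2 had r of 0.71 and rho of 0.77 (permutation p of 0.00834 and 0.00248, adjusted 0.0259 and 0.00992), with 0.76 without the 2 farthest rats and 0.54 and 0.89 on the slides. Neither passed with any of the 5 enzymes. Srebf2 had r between -0.09 with Fdps and 0.28 with Hmgcs1 among those enzymes, and Insig1 between 0.03 with Fdps and 0.54 with Hmgcs1. The last value fell to 0.04 without the 2 rats farthest from the median of Hmgcs1. Dhcr7 passed with no member, its highest r being 0.54 with Fdps. Whether the correlations with the 5 enzymes differ between Dhcr7, Insig1 or Srebf2 and the enzymes themselves was not tested.

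**Figure D3:**
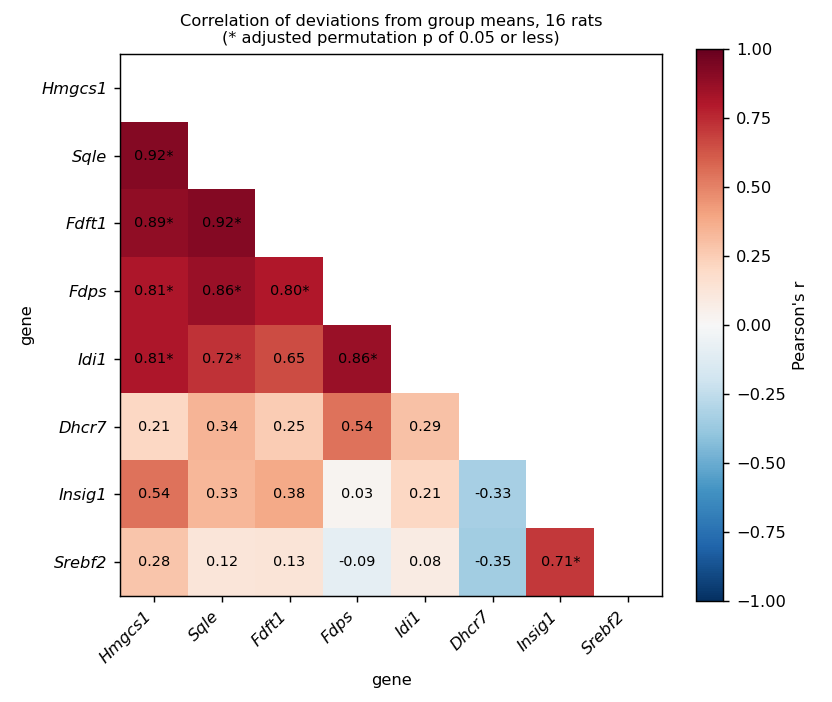
Pearson's r between the deviations of 2 genes from their group means over 16 rats, for all 28 pairs, coloured from -1 to 1, with both axes listing the genes. Asterisks mark the 10 pairs with an adjusted permutation p of 0.05 or less, 9 of them among Hmgcs1, Sqle, Fdft1, Fdps and Idi1, where r reached 0.92.

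Within groups the same rats tended to be high for these 5 enzymes, a description made after their values were seen. Rat 17 was the highest of the untreated wildtype rats for 5 of 5 enzymes, rat 14 of the DSS-treated wildtype rats for 5 of 5 and rat 23 of the untreated Pirc rats for 5 of 5. Rat 26 was the lowest of the DSS-treated wildtype rats for 5 of 5, and rat 25 of the untreated wildtype rats for 4 of 5. Rats 26 and 25 also had the highest smooth muscle sums of the 16 rats, at 14.6 and 9.69, against at most 6.17 in the others. In DSS-treated Pirc rats the order was looser, rat 20 being highest for 3 of 5 and rat 12 lowest for 3 of 5. The deviation of the members' mean (each member standardized over the 16 rats) correlated with that of the log2 75th percentile signal of the array at -0.43 and with that of the adipocyte sum at 0.67, the colon epithelium sum at 0.51, the leukocyte sum at 0.49, the fibroblast sum at 0.48 and the stratified and urothelial sum at 0.42. It correlated with that of the smooth muscle sum at -0.51, the goblet cell sum at -0.31, the proliferation sum at -0.28 and the surface colonocyte sum at 0.06. The part of these in the shared variation was not tested.

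Outside the members, the 5 genes whose level was most like the members' mean over the 16 rats, among 10356 genes above background on all arrays, were Cyp51 with r of 0.90, Msmo1 with 0.89, Arl4a with 0.83, Hsd17b7 with 0.79 and Ube2e2 with 0.76. Cyp51, Msmo1 and Hsd17b7 encode enzymes that follow lanosterol in the pathway, whereas Arl4a encodes a small GTPase and Ube2e2 a ubiquitin-conjugating enzyme. For deviations from group means r was 0.92 for Cyp51, 0.90 for Msmo1, 0.81 for Arl4a, 0.86 for Hsd17b7 and 0.73 for Ube2e2. An r of 0.8 or more for deviations was found for 3 of the 12 other synthesis genes measured and for 0.106% of the 10356 genes, and an r of 0.5 or more for 9 of the 12 and for 5.77%. Lss, which encodes the synthase of lanosterol, stood at 0.73.

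**Figure D4:**
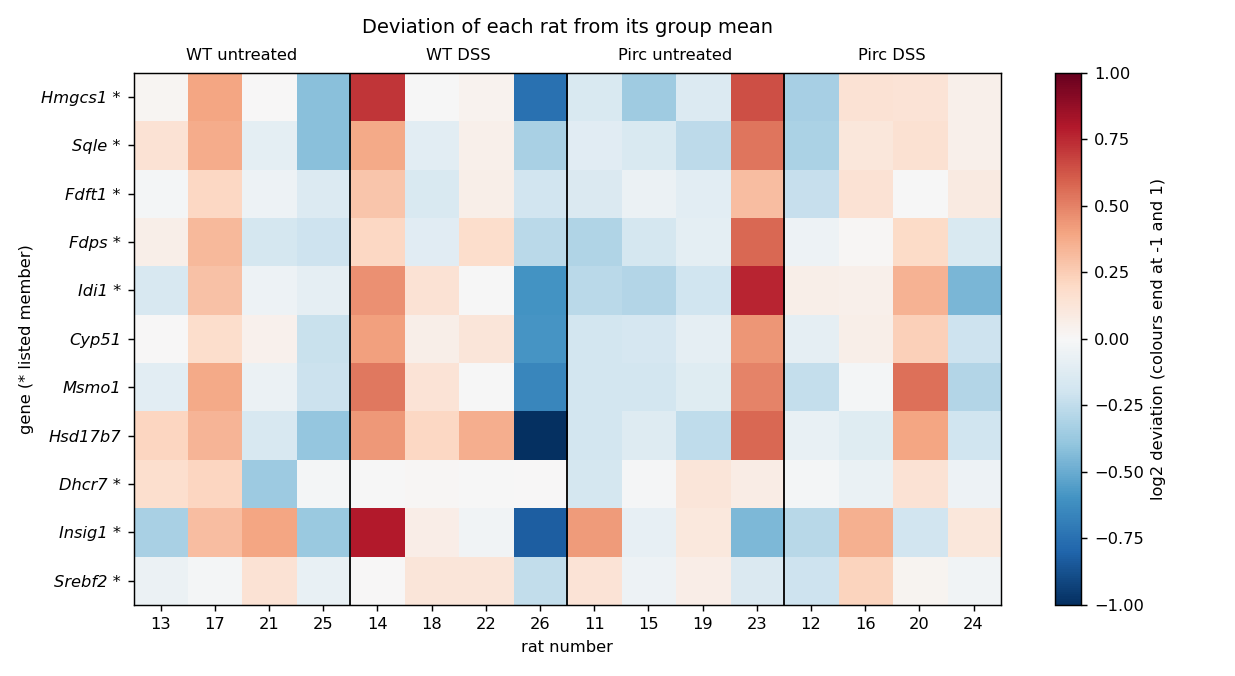
Deviation of each rat from its group mean (colour, log2, ending at -1 and 1) for the 8 members, marked by asterisks, and for Cyp51, Msmo1 and Hsd17b7, with rats along the horizontal axis in their 4 groups. Rats 17, 14 and 23 were above their group means and rat 26 below for the 5 enzymes Hmgcs1, Sqle, Fdft1, Fdps and Idi1.

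Of 19 genes of the wider synthesis pathway considered here, 18 were measured, all above background on all arrays. After DSS over both genotypes 3 of the 18 passed higher, against 10.2% of all probes, and none lower, with a median difference of 0.17 against 0.06 for all probes. Beside Idi1 these were Sc5d, a desaturase of the last steps, at 0.36 ± 0.10 (adjusted p of 0.0263), and Nsdhl, which takes part in removing the methyl groups of lanosterol, at 0.26 ± 0.08 (adjusted p of 0.0441). Cyp51, Msmo1 and Hsd17b7 were at 0.15, 0.47 and 0.57 and did not pass (adjusted p of 0.575, 0.0952 and 0.0779). The call of Sc5d was lost on leaving out any of 6 of the 16 rats and that of Nsdhl any of 11, among them rat 26 (0.26, adjusted p of 0.0584). Nsdhl also did not pass with slide and array row as blocks (adjusted p of 0.0526) or with normexp background correction (0.0553).

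**Figure D5:**
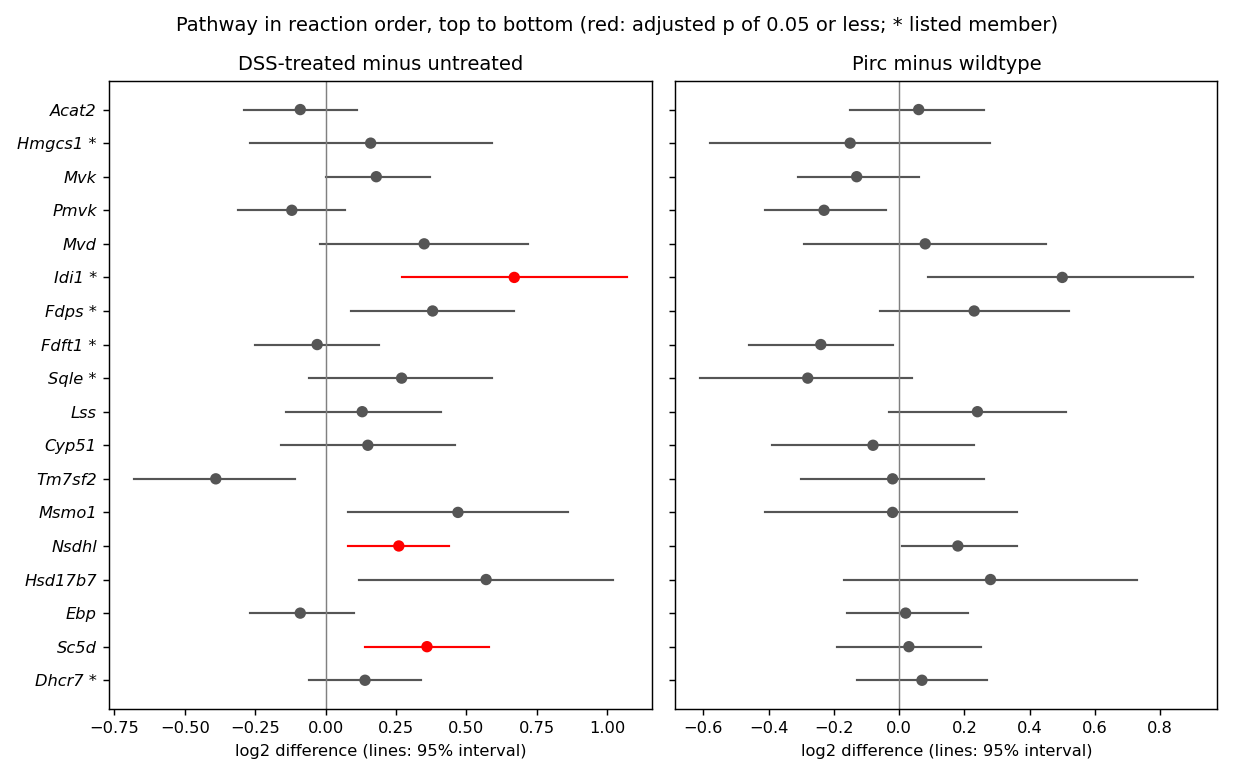
Log2 differences of 18 synthesis genes in the order of their reactions from top to bottom, after DSS over both genotypes (left) and in Pirc against wildtype rats over both treatments (right), with 95% intervals as lines. Red marks an adjusted p of 0.05 or less: Idi1, Nsdhl and Sc5d after DSS, and none of the genes drawn in Pirc rats.

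Of 10 listed genes that control SREBP, 9 were measured, and in Pirc rats 3 passed lower over both treatments, against 8.27% of all probes, and none higher: Srebf2, Mbtps2, the protease of the second cleavage, at -0.53 ± 0.13 (adjusted p of 0.011), and Rnf139, a ubiquitin ligase of the endoplasmic reticulum, at -0.31 ± 0.09 (adjusted p of 0.0366). Among DSS-treated rats 4 passed lower, against 8.76% of all probes, namely Srebf2, Mbtps2 at -0.71 ± 0.18, Rnf139 at -0.60 ± 0.13 and Mbtps1, the protease of the first cleavage, at -0.41 ± 0.13 (adjusted p of 0.0137, 0.00815 and 0.0357 for the last 3). After DSS 1 of the 9 passed, Rnf139, at -0.29 ± 0.09 over both genotypes (adjusted p of 0.0454) and at -0.58 ± 0.13 in Pirc rats (adjusted p of 0.00906), where 6.99% and 6.51% of all probes passed lower. With normexp background correction Mbtps2 did not pass over both treatments (-0.36, adjusted p of 0.0572) or among DSS-treated rats (-0.41, adjusted p of 0.129), and leaving out any of 7 rats ended the call of Mbtps1, among them rat 26 (-0.33, adjusted p of 0.0871). The call of Rnf139 after DSS over both genotypes was lost on leaving out any of 12 rats, among them rat 26 (-0.29, adjusted p of 0.0622), and with slide and array row as blocks (adjusted p of 0.0555), and its call in Pirc against wildtype rats over both treatments on leaving out any of 9 rats. When only the groups compared were fitted, Mbtps1, Mbtps2 and Rnf139 did not pass among DSS-treated rats (adjusted p of 0.123, 0.0762 and 0.0546), nor did Rnf139 after DSS in Pirc rats (0.0556). The markers given beside Srebf2 moved in these comparisons too.

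Of 8 genes of cholesterol uptake and transport considered here, 4 passed after DSS over both genotypes, 1 higher and 3 lower, against 10.2% of all probes higher and 6.99% lower. Npc1l1, the intestinal sterol transporter, was higher by 1.21 ± 0.27 (adjusted p of 0.00663). Osbp, an oxysterol-binding protein, was at -0.55 ± 0.13, Mylip, a ubiquitin ligase, at -0.45 ± 0.12, and Stard4, a carrier of cholesterol in the cytosol, at -0.42 ± 0.10 (adjusted p of 0.0094, 0.0191 and 0.0117). The probes of Osbp and Stard4 disagreed, the other probe being at 0.08 ± 0.12 for Osbp and 0.02 ± 0.13 for Stard4. In Pirc rats over both treatments 3 of the 8 passed lower, against 8.27% of all probes. Npc1, Lipa and Npc2, which release cholesterol from lysosomes, were at -0.48 ± 0.13, -0.31 ± 0.09 and -0.23 ± 0.07 (adjusted p of 0.0237, 0.0253 and 0.0391). The call of Npc2 was lost on leaving out any of 10 rats, that of Npc1 without rat 17 or 12 and that of Lipa without rat 13 or 17. With normexp Npc2 and Lipa did not pass (adjusted p of 0.0599 and 0.0538), and the other probe of Npc1 was at -0.32 ± 0.14 (adjusted p of 0.139).

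Of 11 genes of efflux and esterification, 2 passed higher after DSS over both genotypes and 1 lower, against 10.2% and 6.99% of all probes. Apoe, an apolipoprotein that macrophages and other cells secrete, was higher by 2.95 ± 0.26 (adjusted p of 1.35e-05). Its 8 treated and 8 untreated rats did not overlap, which held for 2.67% of all probes. Ch25h, which makes 25-hydroxycholesterol, was higher by 1.17 ± 0.26 (adjusted p of 0.00535), and Cyp27a1, which makes 27-hydroxycholesterol, was at -0.91 ± 0.22 (adjusted p of 0.00989). Of the 11 genes 8 were above background on all arrays, and Ch25h was not among these. Over the processing choices its difference ran from 0.47 to 1.17, with an adjusted p of at most 0.0472. In Pirc rats over both treatments 2 of the 11 passed lower, against 8.27% of all probes, and none higher. Cyp27a1 was at -0.85 ± 0.22 and Nr1h2, which encodes a nuclear receptor for oxysterols, at -0.35 ± 0.08 (adjusted p of 0.0172 and 0.00854). Of 8 measured leukocyte markers, 5 were above background on all arrays. After DSS over both genotypes 5 of the 8 passed higher and none lower, with sums of 1.68 to 3.08 in untreated and 2.19 to 3.43 in DSS-treated rats. The part of leukocytes in the differences of Apoe, Ch25h, Cyp27a1 and Nr1h2 was not tested.

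Of 12 genes of fatty acid synthesis, 3 passed higher after DSS over both genotypes, against 10.2% of all probes: Scd, a desaturase, at 0.88 ± 0.27, Acaca, the cytosolic acetyl-CoA carboxylase, at 0.69 ± 0.12, and Gpam, an acyltransferase of glycerolipid synthesis, at 0.50 ± 0.12 (adjusted p of 0.0353, 0.00124 and 0.00807). With normexp Acaca was at 0.37 and did not pass (adjusted p of 0.0581), and leaving out any of 10 rats ended the call of Scd. Acss2, which makes acetyl-CoA from acetate, was at -0.61 ± 0.13 (adjusted p of 0.00546), the only 1 of the 12 that passed lower, against 6.99% of all probes. In Pirc rats over both treatments 3 passed higher and 2 lower, against 9.26% and 8.27% of all probes. Scd, Me1 and Fads2 were higher by 0.96 ± 0.27, 0.90 ± 0.15 and 0.59 ± 0.13, and Acacb and Acss2 were at -1.10 ± 0.30 and -0.45 ± 0.13 (adjusted p of 0.025, 0.00198, 0.00685, 0.0212 and 0.032). On all arrays 10 of the 12 genes were above background, and Acacb was not among these, with group means from -8.48 to -7.01. With normexp Acacb was at -0.37 and did not pass (adjusted p of 0.0868). The calls of Scd and Acss2 were lost on leaving out any of 5 and any of 9 rats, the latter also without rat 26 (-0.38, adjusted p of 0.0523). Of 7 measured genes of the non-sterol branches that start from farnesyl diphosphate, none passed after DSS over both genotypes. In Pirc rats over both treatments 1 of the 7 passed lower, against 8.27% of all probes. This was Nus1, a subunit of the enzyme that makes dolichol, at -0.51 ± 0.13 (adjusted p of 0.0143). Its other probe was at -0.14 ± 0.08 (adjusted p of 0.271), and at 0.05 in place of -0.29 among untreated rats.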

How the data were processed

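Total RNA of normal distal colon from 16 rats was hybridized, 1 rat an array, to 2 slides of 8 one-color Agilent arrays. The authors scanned them with Agilent Feature Extraction 10.7.3.1, whose deposited files, per the file headers, give each spot's background-corrected intensity, and the labels name Partek for later steps, which were not used here. From these intensities 4259 control spots were left out, outlier-flagged spots were dropped (25 probe values with every spot flagged were kept), and spots of a probe were averaged. The log2 of the deposited intensity minus the log2 75th percentile of the array was fitted in limma 3.58.1 (R 4.3.3) with 1 mean per group over all 16 arrays, with Benjamini-Hochberg adjustment over 30367 probes and no filter. The script was tested on simulated data. Array number limits the precision.

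Symbols came from RefSeq accessions (18006 probes matched, 12361 did not). For a gene with several probes, the leading probe was above background on most arrays and then brightest. Named were the 8 members, listed pathway genes that passed and the 5 genes most like the members' mean. Lbr, Srebf1 and Pdss1 matched no probe, and some genes of the pathway, control and uptake lists are not reported here. Members and lists were chosen with earlier results of these data known. Marker lists covered colon epithelium, surface colonocytes, goblet cells, leukocytes, fibroblasts, smooth muscle, adipocytes, stratified and urothelial epithelium, and proliferation. Correlations used numpy 2.4.6 and scipy 1.17.1. Alternatives were quantile normalization, normexp with an offset of 50, kept flagged spots, a filter on dim probes, slide and array row as blocks, only the groups compared, no moderation, averaged probes, a factor of 2 and leaving out each rat.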

Additional observations from a re-analysis of the deposited data

Results flagged for a closer look

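In groups of 4 rats, the gap of the highest or lowest rat to its neighbour was compared with the range of the group for the 8 members, 32 groups in all, against Dixon's 95% critical value. In 1 group it was exceeded, where chance gives 1.6 at 1 in 20. Idi1 in untreated Pirc rat 23 was at 2.89 and the nearest rat at 1.92, a gap of 0.909 of the range. The array of rat 23 had the lowest 75th percentile signal of its group, at 1063. Whether this bore on its Idi1 level was not tested.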

How the results depend on the processing

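With all 16 rats, Idi1 after DSS over both genotypes (0.65 to 0.67, adjusted p of 0.0132 to 0.0329) and Srebf2 in Pirc rats over both treatments (-0.37 to -0.34, adjusted p of 0.00548 to 0.0168) passed under every alternative but the factor of 2, and they passed without any 1 rat, at 0.60 to 0.80 and -0.42 to -0.34. Requiring a change by a factor of 2 as well left 0 members after DSS over both genotypes and 0 in Pirc against wildtype rats, over both treatments or with DSS. After DSS over both genotypes 2 members passed with quantile normalization or the filter on dim probes, Fdps being added. In Pirc rats 1 passed, Idi1, with quantile normalization, normexp, the filter or averaged probes. Over all alternatives other than leaving out a rat, Idi1 after DSS in Pirc rats was at 0.78 to 0.80, with an adjusted p of 0.036 to 0.13. Fitting only the groups compared left 0 in Pirc against wildtype rats among DSS-treated rats. With quantile normalization Hmgcs1 after DSS in Pirc rats was at -0.07 in place of 0.04. The median of all probes after DSS over both genotypes was 0.06, and it was -0.09 with quantile normalization and 0.15 with normexp; relative to it, Idi1 was at 0.62, 0.75 and 0.51. For Pirc rats over both treatments the medians were -0.06, -0.04 and -0.18, and Srebf2 relative to them was at -0.32, -0.30 and -0.18. The causes were not tested.

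Leaving out each rat in turn gave 1 to 2 members after DSS over both genotypes (2 without rat 26 or 23), 0 to 2 in Pirc rats (2 without rat 23, 1 without rat 26 or 24) and 1 to 2 in Pirc against wildtype rats over both treatments (2 without rat 14 or 24). Signs turned for differences near 0. After DSS over both genotypes the range was -0.14 to 0.13 for Insig1 and -0.08 to 0.02 for Fdft1. After DSS in Pirc rats it was -0.08 to 0.25 for Hmgcs1 and -0.11 to 0.04 for Fdft1. In Pirc against wildtype rats it was -0.25 to 0.10 for Hmgcs1, -0.08 to 0.22 for Fdps and -0.07 to 0.13 for Dhcr7 when untreated, and -0.18 to 0.36 for Insig1 when DSS-treated. For the difference between the DSS effects it was -0.22 to 0.08 for Sqle, -0.13 to 0.04 for Fdft1 and -0.04 to 0.15 for Dhcr7. The rat numbers are unique to each rat and pair no rats, but each slide and array row held 1 rat of every group. With slide and array row as blocks, 3 calls were lost, Nsdhl (adjusted p of 0.0526) and Rnf139 (0.0555) after DSS over both genotypes and Mylip (0.0506) in Pirc against wildtype rats when DSS-treated, and no other named call changed.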
